A study of Mus musculus with 6 samples.

Results

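Apoptotic cell and scavenger receptor genes were described in dendritic cells (DCs) sorted from the mouse thymus. The set was fixed by gene symbol and held 9 of the 23420 symbols counted: the receptor tyrosine kinases Axl, Mertk and Tyro3, their ligand Gas6, the receptors Stab1, Cd36, Timd4 and Msr1, and galectin-3, encoded by Lgals3. The 6 RNA-seq libraries formed 3 groups of 2, all from wild-type mice. YG+ pDCs were plasmacytoid DCs (low CD11c, B220+) that carried yellow-green fluorescent microspheres and came from mice with MC38 tumours, a colon carcinoma line grown under the skin for 12 days before the microspheres were injected in the tumour. Cells were taken 2 days later. PBS pDCs (the same gate without the microsphere gate) and PBS Sirpa+ DCs (high CD11c, Sirpa+, a conventional DC subset) came from mice given PBS for 2 weeks. Whether the PBS mice bore tumours is not given in the labels, so tumour, microspheres and the YG gate cannot be told apart in any comparison with YG+ pDCs. It is not labelled either whether a group's libraries stand for different mice, and the spread behind each p-value is that between these samples and may be technical.

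Dying cells expose phosphatidylserine (PS) on their surface, and phagocytes engage it either directly or through a soluble bridge. Axl, Mertk and Tyro3 (the TAM kinases) bind PS through the bridging proteins Gas6 and protein S, whereas Timd4 (TIM-4) and stabilin-1 (Stab1) bind it directly. Cd36 and Msr1 (scavenger receptor A) take up modified lipoproteins, dead cells and particles, and galectin-3 is a sugar-binding lectin abundant in macrophages. In the thymus, where most thymocytes die during selection, macrophages and DCs clear the corpses with such receptors.

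The libraries were shallow, with 177844 to 713966 counts in genes. Levels are in CPM, counts scaled to a common library size as described with the processing. A count of 0 in a library allows a level of up to 4.21 to 19.1 CPM, the worth of 3 counts. Intervals and floors cover counting error only. PBS pDC replicate 1 was the shallowest and correlated less with PBS pDC replicate 2 (Pearson r = 0.7265 over the log2 levels of genes, which are no independent replicates) than that library did with either YG+ pDC library (0.863 and 0.897). Summed over 10 pDC markers, the level was 4301 to 6266 CPM in the 4 pDC libraries and 1049 and 1264 CPM in Sirpa+ DCs, and 13 conventional DC markers summed to 1505 to 2622 CPM against 6262 and 5810 CPM. In these sums the labelled cell types carried their markers. Of the pDC markers, only Irf7 had a higher mean in Sirpa+ DCs than in PBS pDCs (355 against 188 CPM). Of the conventional DC markers, only Irf4 (163 against 191 CPM) and Clec10a (37.1 against 137 CPM) had a lower one. The highest of that list in Sirpa+ DCs were Fscn1 (2454 CPM) and Ccr7 (1270 CPM). The 8 B cell markers summed to 692 to 817 CPM in the pDC libraries and 25.4 and 19.9 CPM in Sirpa+ DCs. In all such bulk samples, fewer cells of a type and less RNA per cell cannot be told apart.

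Among the TAM kinases, Axl was present in every library, Mertk was at 0 in PBS pDCs only, and Tyro3 had no count anywhere. Axl (chromosome 7, 25757273 to 25788705, minus strand; coordinates here are of protein-coding genes in GENCODE M21, GRCm38) was 89.3 and 85.6 CPM in PBS pDC replicates 1 and 2. It was 289 and 161 CPM in YG+ pDCs and 410 and 628 CPM in Sirpa+ DCs. No groups overlapped, and YG+ pDCs lay between the others. The level in Sirpa+ DCs was 5.94-fold that of PBS pDCs, a log2 fold change of 2.58 ± 0.49 (SE; edgeR quasi-likelihood test with Benjamini-Hochberg adjustment, adjusted p = 0.00762). YG+ pDCs were 2.58-fold above PBS pDCs (log2 fold change 1.37 ± 0.48, edgeR adjusted p = 0.331) and 2.31-fold below Sirpa+ DCs (-1.21 ± 0.44, edgeR adjusted p = 0.133), and neither difference passed the test. The second was called without either PBS pDC library (edgeR adjusted p = 0.0368 and 0.0385) and in a fit of the 4 libraries compared (0.0334). Without Sirpa+ DC replicate 2 the difference between Sirpa+ DCs and PBS pDCs was not called either (edgeR adjusted p = 0.0808).

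Mertk (chromosome 2, 128698956 to 128802894) had 0 counts in both PBS pDC libraries, 51 and 5 counts in YG+ pDC replicates 1 and 2 and 11 and 29 in Sirpa+ DCs. In CPM this was 71.6 and 8.95 in YG+ pDCs and 46.5 and 57.8 in Sirpa+ DCs, so the YG+ pDC libraries lay on both sides of the Sirpa+ DC range. Against a floor of 3 counts over the PBS pDC group (5.09 CPM), Sirpa+ DCs were at least 10.2-fold higher (edgeR adjusted p = 0.0317). The call was lost without either Sirpa+ DC library (edgeR adjusted p = 0.137 without replicate 1 and 0.179 without replicate 2) and without PBS pDC replicate 2 (0.117). YG+ pDCs were at least 7.91-fold higher than PBS pDCs, which did not pass (edgeR adjusted p = 0.315). That bound was 14.1-fold from YG+ pDC replicate 1 alone and 1.76-fold from replicate 2 alone. With no filter on low counts the difference between YG+ and PBS pDCs was called (edgeR adjusted p = 0.00134).

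Tyro3 (chromosome 2, 119797733 to 119818104) is the TAM kinase best known from the nervous system. Its count of 0 in 6 libraries allowed at most the floor given above. Per kilobase of exon, which allows genes to be compared, Axl made up 77.7% and 93.9% of the summed level of the TAM kinases in YG+ pDC replicates 1 and 2, 88.4% and 90.3% in Sirpa+ DCs and 100% in both PBS pDC libraries, with Mertk the rest. The 100% rests on 14 and 37 Axl counts. Gas6 (chromosome 8, 13465374 to 13494490) had 15 and 0 counts in YG+ pDCs, 5 and 0 in PBS pDCs and 0 and 5 in Sirpa+ DCs. In every group all its counts came from a lone library, so the groups overlapped and Gas6 was too low to enter the test. The other ligand, protein S (Pros1), was low as well, at 0 to 12.6 CPM; it was looked up after the values of Gas6 were seen.

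The 250 bases before the RefSeq start (GRCm38.p6) are shown for the Axl, Mertk and Stab1 genes because Axl was detected in every library whereas Mertk and Stab1 were at 0 in both PBS pDC libraries. They run 5′ to 3′ on the gene's strand, from chr7:25788734-25788983 (minus), chr2:128698665-128698914 (plus) and chr14:31168642-31168891 (minus). Capitals mark matches, on either strand, to GAGGAA (core of the box bound by PU.1, a myeloid transcription factor), TGCTGA (a core motif of MAF factors) or CAGGTG (an E2 box).
Axl: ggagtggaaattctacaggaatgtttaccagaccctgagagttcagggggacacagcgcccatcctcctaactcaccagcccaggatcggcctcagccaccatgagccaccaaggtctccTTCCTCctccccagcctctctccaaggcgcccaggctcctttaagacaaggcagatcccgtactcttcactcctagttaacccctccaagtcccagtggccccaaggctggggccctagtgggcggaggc
Mertk: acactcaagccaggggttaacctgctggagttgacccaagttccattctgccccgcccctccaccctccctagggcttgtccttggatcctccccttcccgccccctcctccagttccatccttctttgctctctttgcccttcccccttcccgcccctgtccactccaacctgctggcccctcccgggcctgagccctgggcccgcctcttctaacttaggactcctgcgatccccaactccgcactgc
Stab1: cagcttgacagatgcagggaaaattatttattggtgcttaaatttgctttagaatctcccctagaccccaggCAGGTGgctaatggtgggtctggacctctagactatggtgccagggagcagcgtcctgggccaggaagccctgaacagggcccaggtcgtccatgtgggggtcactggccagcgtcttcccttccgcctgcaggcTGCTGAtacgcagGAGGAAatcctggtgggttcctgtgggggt
The Axl stretch held 1 match, to GAGGAA, and the Stab1 stretch held 1 match to each of the 3 motifs. The Mertk stretch held none of them. Of 32851 promoters of the same length, 23.2% held GAGGAA, 16.1% TGCTGA and 17.2% CAGGTG. An AP-1 site (TGANTCA, in 6.75% of promoters) was absent from all 8 members' stretches that RefSeq gave; Msr1 was not among them. GC content was 60.0% for Axl, 63.6% for Mertk and 57.2% for Stab1, against a median of 52.4%. A match is a description of these letters and not a bound site.

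Of the direct PS receptors, Stab1 and Timd4 were at 0 in both PBS pDC libraries and present in every library of the other groups. Stab1 (chromosome 14, 31139013 to 31168641) is a large scavenger receptor of macrophages and sinusoidal endothelium. It had 0 counts in PBS pDCs, 57 and 19 counts (80.1 and 34.0 CPM) in YG+ pDC replicates 1 and 2 and 40 and 60 counts (169 and 120 CPM) in Sirpa+ DCs. No groups overlapped. Sirpa+ DCs were at least 28.4-fold above PBS pDCs (edgeR adjusted p = 0.00208), and this call held whichever library was left out. YG+ pDCs were at least 11.2-fold above PBS pDCs without passing the test (edgeR adjusted p = 0.235); the bound was 15.7-fold from replicate 1 alone and 6.67-fold from replicate 2 alone. Without PBS pDC replicate 2 that difference was called (edgeR adjusted p = 0.0475), as it was with no filter on low counts (edgeR adjusted p = 6.47e-05). Exons of Nt5dc2, on the opposite strand, cover 1.09% of the Stab1 exon length.

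Timd4 (chromosome 11, 46810800 to 46844332) is the PS receptor of several resident macrophage populations. No PBS pDC library held a count of it. It had 14 and 3 counts (19.7 and 5.37 CPM) in YG+ pDCs and 3 and 11 counts (12.7 and 21.9 CPM) in Sirpa+ DCs. YG+ pDCs and Sirpa+ DCs overlapped. Sirpa+ DCs were at least 3.40-fold and YG+ pDCs at least 2.46-fold above PBS pDCs, though the latter bound was 1.05-fold from YG+ pDC replicate 2 alone. The gene was too low for the main test; with no filter, edgeR gave adjusted p = 0.0348 for Sirpa+ DCs against PBS pDCs and 0.203 for YG+ pDCs against PBS pDCs.

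Cd36 and Msr1 are scavenger receptors with few counts in PBS pDCs. Cd36 (chromosome 5, 17781690 to 17888801), which binds oxidised lipoproteins and fatty acids, had 0 and 1 counts in PBS pDC replicates 1 and 2, 23 and 13 in YG+ pDCs (32.3 and 23.3 CPM) and 15 and 7 in Sirpa+ DCs (63.5 and 14.0 CPM). Both YG+ pDC libraries were above both PBS pDC libraries and inside the Sirpa+ DC range. The ratio of pooled counts per total was 16.7 for YG+ pDCs to PBS pDCs (95% exact counting interval 2.81 to 677) and 17.6 for Sirpa+ DCs to PBS pDCs (2.84 to 725). Fitted log2 fold changes were 3.85 ± 1.24 (edgeR adjusted p = 0.315) and 4.17 ± 1.26 (edgeR adjusted p = 0.0560), and neither passed. The second was called with scaling by library size only (edgeR adjusted p = 0.0430), with no filter on low counts (0.00690) and without Sirpa+ DC replicate 2 (0.0488), and its value ran from 2.88 without Sirpa+ DC replicate 1 to 6.87 without PBS pDC replicate 2.

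Msr1 (chromosome 8, 39581685 to 39642673) had 1 and 0 counts in PBS pDC replicates 1 and 2, 7 and 0 in YG+ pDCs (9.83 and 0 CPM), and 9 and 19 in Sirpa+ DCs (38.1 and 37.9 CPM). Here YG+ pDCs overlapped PBS pDCs and lay below both Sirpa+ DC libraries. Msr1 was 7.73-fold lower in YG+ pDCs than in Sirpa+ DCs (log2 fold change -2.77 ± 1.02, edgeR adjusted p = 0.133) and 4.20 ± 1.46 higher on the log2 scale in Sirpa+ DCs than in PBS pDCs (edgeR adjusted p = 0.0942). The first was called without either PBS pDC library (edgeR adjusted p = 0.0479 and 0.0405), with no filter on low counts (0.0339) and in a fit of the 4 libraries compared (0.0385). Its value was -6.85 without YG+ pDC replicate 1 and -1.92 without YG+ pDC replicate 2. The second was called without PBS pDC replicate 1 (edgeR adjusted p = 0.0456, value 7.23) and with no filter (0.0119), and was 2.52 without PBS pDC replicate 2. YG+ pDCs against PBS pDCs gave 1.42 ± 1.75 (edgeR adjusted p = 0.802), with a negative sign when either YG+ pDC replicate 1 or PBS pDC replicate 2 was left out. Whether the Cd36 and Msr1 differences are themselves different was not tested. Marco, the related receptor through which macrophages bind unopsonised particles, had 2 counts in all 6 libraries together and was looked up after these values were seen.

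Lgals3 (chromosome 14, 47367751 to 47386160) set Sirpa+ DCs apart from both pDC groups. Its level was 70.2 and 30.1 CPM in PBS pDCs, 54.8 and 48.3 CPM in YG+ pDCs, and 186 and 317 CPM in Sirpa+ DCs. The YG+ pDC libraries lay inside the PBS pDC range, and both Sirpa+ DC libraries were above all others. Lgals3 was 5.02-fold higher in Sirpa+ DCs than in PBS pDCs (log2 fold change 2.48 ± 0.53, edgeR adjusted p = 0.0135) and 4.88-fold lower in YG+ pDCs than in Sirpa+ DCs (-2.29 ± 0.48, edgeR adjusted p = 0.0166). Both calls were lost without either Sirpa+ DC library, at edgeR adjusted p = 0.0530 and 0.121 for the first and 0.0908 and 0.140 for the second. The second was lost also without either YG+ pDC library (0.167 and 0.264). YG+ pDCs and PBS pDCs differed by 0.18 ± 0.54 on the log2 scale (edgeR adjusted p = 0.930).

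**Figure D1:**
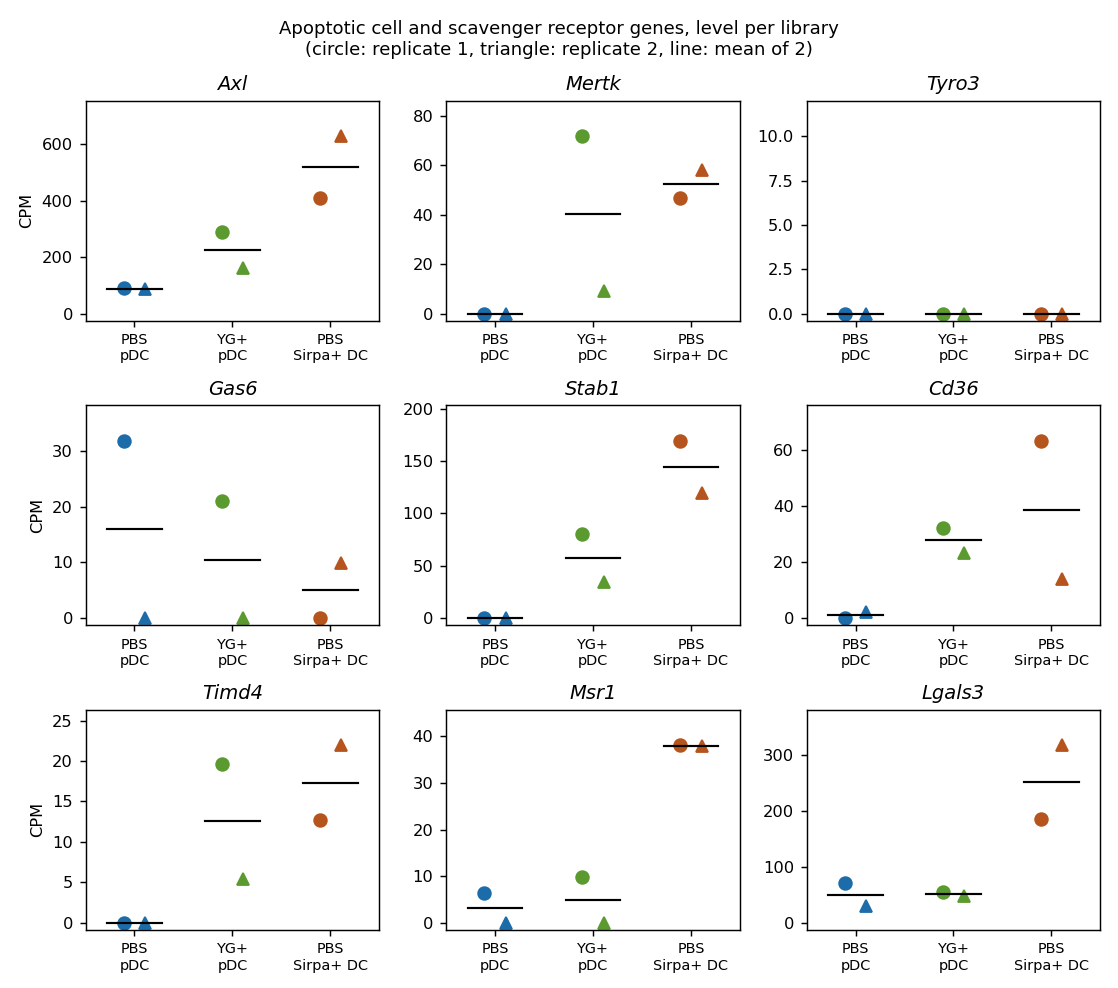
Level of each gene in CPM (vertical axis, from 0, scaled per gene) in the 6 libraries, by group, with circles for replicate 1, triangles for replicate 2 and a line at the mean. Mertk, Stab1 and Timd4 sit at 0 in both PBS pDC libraries, Tyro3 in all libraries, and Lgals3 and Msr1 are high in Sirpa+ DCs only.

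Per kilobase of exon, Lgals3 (135 ± 49.8 CPM per kb, mean ± SD, n = 2) and Axl (103 ± 30.6) led in Sirpa+ DCs. Lgals3 was above Axl within each of those libraries, though the ranges of both genes overlapped. Differences between genes were not tested. Stab1 (14.0 ± 3.41), Mertk (12.0 ± 1.84), Cd36 (10.8 ± 9.75) and Timd4 (7.97 ± 3.01) followed, with Msr1 at 5.99 ± 0.0225 and Gas6 at 1.96 ± 2.77 CPM per kb. In PBS pDCs Lgals3 (27.0 ± 15.3) and Axl (17.4 ± 0.517) overlapped, with Lgals3 the higher in replicate 1 only. Gas6 came next at 6.26 ± 8.85 CPM per kb. In YG+ pDCs Axl (44.7 ± 18.0) was above Lgals3 (27.7 ± 2.46), and both Axl levels lay above both Lgals3 levels. Mertk, Cd36, Timd4, Stab1 and Gas6 lay between 4.13 and 9.29 CPM per kb with SDs of up to 10.2, and Msr1 at 0.77 ± 1.10 CPM per kb.

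Counted over all 9 genes, the Sirpa+ DC libraries were both above both PBS pDC libraries for 7, and 4 passed the edgeR test (Axl, Mertk, Stab1 and Lgals3) and none was lower. Of 8141 genes tested, 11.4% passed in this comparison (6.89% higher and 4.54% lower in Sirpa+ DCs), and 24.2% of genes had both Sirpa+ DC libraries above both PBS pDC libraries. For YG+ pDCs against PBS pDCs the groups did not overlap for 5 genes, all higher in YG+ pDCs (Axl, Mertk, Stab1, Cd36 and Timd4), against 26.5% of all genes, and 0 of the 6 that could be tested passed, as did 0.0% of all genes. At an unadjusted p under 0.05, edgeR gave 4 of these 6 and 11.4% of all genes. DESeq2 called 111 of all genes. Of these 6 it gave an adjusted p for Axl only, which was not called. It gave none for Mertk, Stab1, Cd36, Msr1 and Lgals3, so DESeq2 could not call them. For YG+ pDCs against Sirpa+ DCs, 4 genes were lower with no overlap (Axl, Stab1, Msr1 and Lgals3; 29.1% of all genes, with 32.8% higher), and Lgals3 passed, against 7.16% of all genes (4.09% lower and 3.07% higher). Genes low everywhere but in Sirpa+ DCs or YG+ pDCs passed the filter only through those groups, so the counts over tested genes are descriptions. The comparisons share libraries and are not independent of each other.

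**Figure D2:**
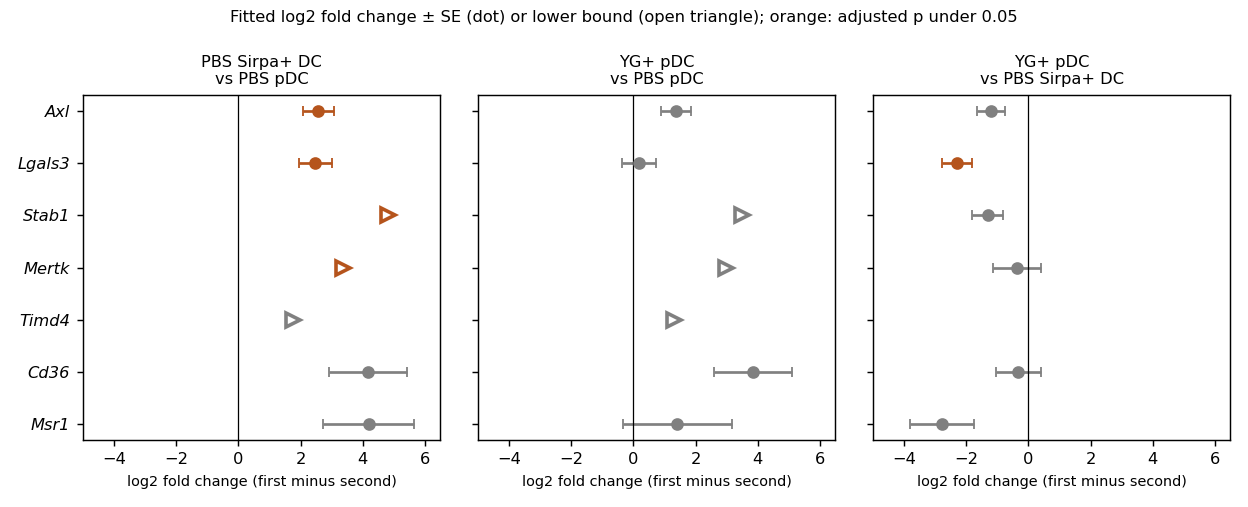
Log2 fold change of the first group over the second (horizontal axis) for 7 genes in the 3 comparisons, as a fitted value ± SE (dots) or, where the second group had no count, a lower bound against 3 counts over the group (open triangles); orange marks an edgeR adjusted p under 0.05. Axl and Lgals3 were higher in Sirpa+ DCs than in PBS pDCs by 2.58 and 2.48, and Lgals3 stayed near 0 between the pDC groups; Timd4 was too low to test.

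The YG+ pDC libraries differed from each other in these genes. All 8 detected members were higher in replicate 1 than in replicate 2. The share of all genes higher in replicate 1 was not counted, so this describes the set only. The ratio of replicate 1 to replicate 2 was 8.01 for Mertk (95% exact counting interval 3.22 to 25.7), 3.66 for Timd4 (1.02 to 19.9), 2.36 for Stab1 (1.38 to 4.19) and 1.80 for Axl (1.40 to 2.33). It was 1.39 for Cd36 (0.675 to 2.98) and 1.13 for Lgals3 (0.677 to 1.93), whose intervals include equal levels. Gas6 and Msr1 had counts in replicate 1 only. These intervals compare those libraries, not conditions.

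Macrophage markers moved with this difference. All 15 macrophage markers in the files were higher in YG+ pDC replicate 1 than in replicate 2. Their sum was 2.55-fold higher (2.29 to 2.84), and here too the share over all genes was not counted. Examples are C1qa, a complement component made by tissue macrophages, at 169 against 41.2 CPM, Mrc1, the mannose receptor, at 176 against 25.1 CPM, and Spic, a transcription factor of red pulp macrophages, at 22.5 against 1.79 CPM. These are among the largest ratios, and that of Spic (12.6, 1.95 to 527) rests on 16 and 1 counts. Smaller ratios were 1.46 for Cd68, 1.84 for Csf1r and 1.88 for Cd163. Fcgr1 and Vsig4 had 6 and 2 counts in replicate 1 and 0 in replicate 2. The summed macrophage level was 2045 and 802 CPM in YG+ pDC replicates 1 and 2, with 15 and 13 markers detected, against 702 and 282 CPM in PBS pDCs (9 and 10 detected), and 4096 and 6318 CPM in Sirpa+ DCs (13 and 14 detected). Fcgr1, Vsig4 and Spic were among the markers at 0 in both PBS pDC libraries, and Vsig4 also in both Sirpa+ DC libraries. PBS pDC replicate 1 was likewise 2.49-fold above replicate 2 in that sum (1.90 to 3.24), with 7 of 11 detected markers higher. In YG+ pDCs the pDC markers went the other way, at 0.722 times the replicate 2 level in replicate 1 (0.687 to 0.759). The part of macrophage RNA in the Axl, Mertk, Stab1 and Timd4 levels was not tested. Of 10 endothelial markers, Tie1 was at 0 in every library and Emcn, Egfl7, Cldn5 and Lyve1 had 0 to 3 counts in each. The list summed to 257 to 368 CPM in the pDC libraries and 106 and 116 CPM in Sirpa+ DCs, nearly all of it from Cdh5, Pecam1 and Kdr, and its part in the Stab1 level was not tested.

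**Figure D3:**
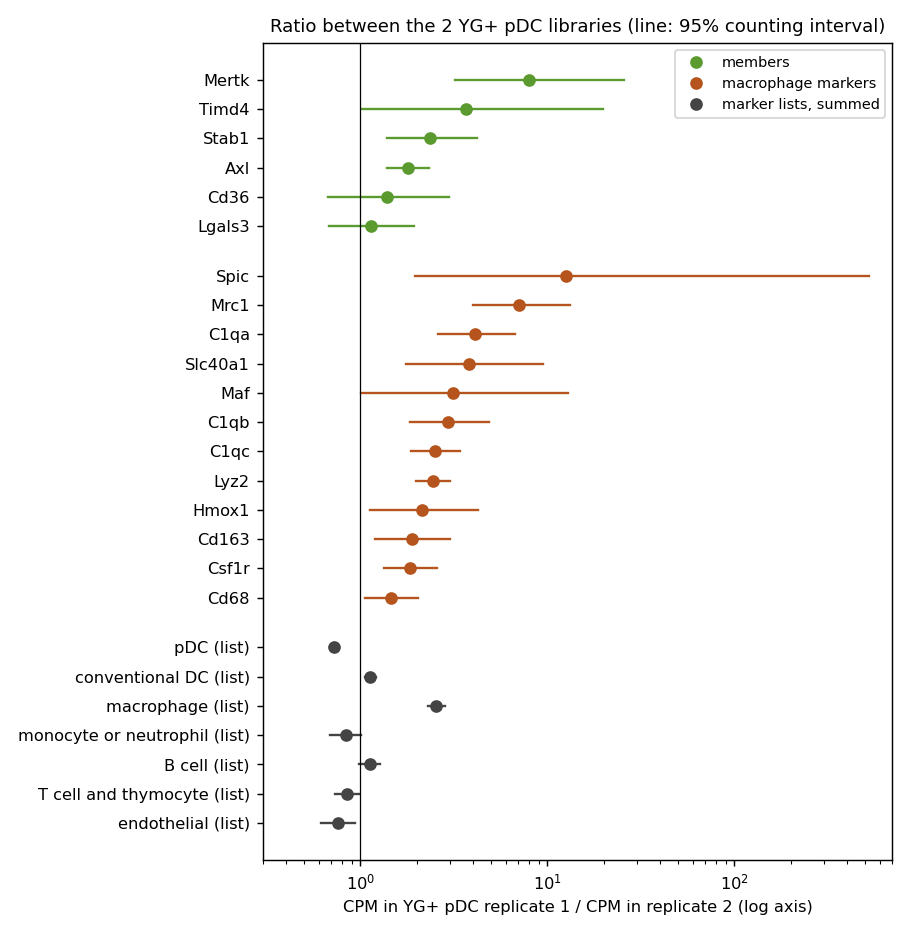
Ratio of the level in YG+ pDC replicate 1 to that in replicate 2 (horizontal log axis) for 6 members, 12 macrophage markers and 7 summed marker lists, with lines for 95% counting intervals. Mertk at 8.01 and Stab1 at 2.36 lie within the range of the plotted macrophage markers, from Cd68 at 1.46 to Spic at 12.6. Cd36 at 1.39, Lgals3 at 1.13 and the pDC list at 0.722 lie below it. The intervals of Cd36 (0.675 to 2.98) and Lgals3 (0.677 to 1.93) overlap that of Cd68 (1.06 to 2.04). The source of these RNAs was not tested.

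The genes with the most similar profile, by root mean square difference of centred log2 CPM over the 6 libraries among 7606 candidates, were named for each member at 20 CPM or more in its highest group. For Axl they were Marcks (0.11), Rasgef1b (0.18) and the PS receptor gene Cd300a (0.21). For Mertk they were the lectin gene Clec4n (0.38), Mrc1 (0.40) and Trpm2 (0.42), and for Stab1 they included Itga9 (0.39) and Lad1 (0.43). Cd36 lay closest to Golph3l (0.41), Slc51a (0.45) and Slc25a25 (0.48), Msr1 to Cenpl (0.24), Trip10 (0.28) and Spata31d1b (0.30), and Lgals3 to Hap1 (0.23), Vwa5a (0.24) and Gpr65 (0.24). Between members, the closest pair was Msr1 and Lgals3 (0.50) and the farthest Stab1 and Lgals3 (1.596).

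Other genes of apoptotic cell clearance followed in 6 lists of 111 genes. Among PS bridges and other PS receptors, 9 of 16 tested genes were higher and 1 lower in Sirpa+ DCs than in PBS pDCs. Over all genes tested, 6.89% were higher and 4.54% lower. The median of the log2 fold changes of the 16 was 2.47, against -0.08 over all genes tested. With no filter on low counts it was 1.86 over 24 genes, against 0 over all genes. Genes low in PBS pDCs could pass the filter through the other groups alone, so medians over tested genes are descriptions. Among the 9 were C1qa, C1qb and C1qc, which also belong to the macrophage markers above. Itgb5, the integrin chain that pairs with alpha-v to bind the bridge Mfge8, was 266 ± 4.81 CPM in Sirpa+ DCs against 4.35 ± 2.87 CPM in PBS pDCs (edgeR adjusted p = 0.00217). Mfge8 itself was 95.8 ± 14.2 against 2.31 ± 3.27 CPM (edgeR adjusted p = 0.00412), and Havcr2 (TIM-3) 253 ± 46.0 against 19.7 ± 8.22 CPM (edgeR adjusted p = 0.00159). The lower gene was Havcr1 (TIM-1), a relative of Timd4, at a log2 fold change of -2.62 ± 0.69 (edgeR adjusted p = 0.0312). In YG+ pDCs against PBS pDCs 0 of the 16 passed, with a median of 1.12 against 0.08 over all genes tested. At an unadjusted p under 0.05 edgeR gave 8, C1qa, C1qb and C1qc among them, against 11.4% of all genes. Without YG+ pDC replicate 1 the list median was 0.84. With no filter on low counts it was 0.89 over 24 genes, against 0 over all genes. In that fit 4 of the 24 were called higher, as were 46 of 16777 genes. Itgb5 was 67.4 and 14.3 CPM in YG+ pDC replicates 1 and 2, a split like that of Mertk. Against Sirpa+ DCs, 4 fell and 0 rose in YG+ pDCs, among them Mfge8 at 15.97 ± 2.72 CPM (edgeR adjusted p = 0.0185) and Havcr2 at 29.6 ± 6.16 CPM (edgeR adjusted p = 0.00381). Over all genes tested, 4.09% fell and 3.07% rose in this comparison. Its median was 0.04 over all genes tested, and -1.498 in the list.

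The engulfment machinery drives the actin cup and the phagosome. In Sirpa+ DCs against PBS pDCs, 3 of its 24 tested genes were higher and 1 lower, with a median of 0.61. Over all genes tested 6.89% were higher and 4.54% lower, with a median of -0.08, so these counts of calls are near the background. At an unadjusted p under 0.05, edgeR gave 11 of the 24, against 24.0% of all genes. Dock1, an activator of Rac, was 51.3 ± 0.750 against 2.31 ± 3.27 CPM (edgeR adjusted p = 0.0175). The haematopoietic GTPase gene Rac2 was lower, at 69.4 ± 20.3 against 857 ± 132 CPM (edgeR adjusted p = 0.00114). Rac2 was 547 ± 15.3 CPM in YG+ pDCs, higher than in Sirpa+ DCs (edgeR adjusted p = 0.00470), and no other gene of the list was called there. Without PBS pDC replicate 1 more genes of the list were called in that comparison, as were more of all genes tested. The list median was then -0.28, against -0.26 with all libraries. Against PBS pDCs, 0 of 24 passed in YG+ pDCs (median 0.47). At an unadjusted p under 0.05, edgeR gave 3 there, against 11.4% of all genes. Lamp2, a membrane protein of lysosomes, was 199 ± 38.4 against 88.3 ± 25.7 CPM there (edgeR adjusted p = 0.363).

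Of other scavenger receptors, 4 of 11 tested genes were higher in Sirpa+ DCs than in PBS pDCs and 0 lower (median 0.33). Over all genes tested, 6.89% were higher and 4.54% lower in that comparison. For YG+ pDCs the shares were 4.09% lower and 3.07% higher than in Sirpa+ DCs. Against PBS pDCs, edgeR gave 11.4% of all genes at an unadjusted p under 0.05. Cxcl16, a chemokine that also acts as a receptor for oxidised lipoprotein, was 1080 ± 199 against 38.5 ± 8.66 CPM (edgeR adjusted p = 7.81e-04), with 18.3% of its exon length under exons of Zmynd15 on the opposite strand, and Mrc1 was 123 ± 35.6 against 10.1 ± 5.31 CPM (edgeR adjusted p = 0.0413). Between YG+ and PBS pDCs 0 passed (3 at an unadjusted p under 0.05, median 0.28), and against Sirpa+ DCs Cxcl16 fell to 102 ± 17.2 CPM in YG+ pDCs (edgeR adjusted p = 0.00232, list median -0.25). Among receptors for antibody, complement and sugars, 4 of 12 were higher in Sirpa+ DCs than in PBS pDCs and 0 lower (median 0.93). Clec7a (Dectin-1) was 913 ± 53.1 against 67.8 ± 66.5 CPM (edgeR adjusted p = 0.00536), and Clec9a, a receptor for actin exposed on dead cells, 279 ± 59.6 against 38.5 ± 27.4 CPM (edgeR adjusted p = 0.00887). In YG+ pDCs 0 of 12 passed against PBS pDCs (2 at an unadjusted p under 0.05, median 0.15), and Clec7a and Clec9a were lower than in Sirpa+ DCs, at 106 ± 40.9 and 74.7 ± 18.3 CPM (edgeR adjusted p = 0.0143 and 0.0343, list median -0.86).

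Of 4 tested genes for other galectins and their partners, Lgals3bp, which encodes a galectin-3 binding protein, was higher in Sirpa+ DCs than in PBS pDCs at 678 ± 288 against 163 ± 5.05 CPM (edgeR adjusted p = 0.0163, list median 1.10). No gene of that list passed between YG+ and PBS pDCs (0 at an unadjusted p under 0.05, median 0.27) or between YG+ pDCs and Sirpa+ DCs (2 at an unadjusted p under 0.05, median -1.10). Over all genes tested, edgeR gave 11.4% and 22.8% at an unadjusted p under 0.05 in these 2 comparisons. Of genes of the response to engulfed cells and of TAM feedback, 2 of 16 were higher in Sirpa+ DCs than in PBS pDCs and 0 lower (median 0.37). Over all genes 6.89% and 4.54% were, so these counts of calls are near the background too. At an unadjusted p under 0.05, edgeR gave 5 of the 16, against 24.0% of all genes. Nr1h3, the sterol receptor LXR-alpha, was 45.3 ± 7.71 against 3.19 ± 4.51 CPM (edgeR adjusted p = 0.0233), and Socs3, a feedback inhibitor of cytokine signals that TAM kinases induce, 353 ± 14.2 against 107 ± 25.2 CPM (edgeR adjusted p = 0.0245). In YG+ pDCs 0 of 16 passed against PBS pDCs (1 at an unadjusted p under 0.05, median 0.47) and 0 against Sirpa+ DCs (2 at an unadjusted p under 0.05, median -0.15). Nr1h3 was 23.0 ± 7.21 CPM in YG+ pDCs (edgeR adjusted p = 0.315 against PBS pDCs). Without YG+ pDC replicate 1, calls for YG+ pDCs against Sirpa+ DCs were fewer in the PS list and over all genes tested. The PS list median was then -1.98, against 0.04 over all genes tested. Calls among receptors for antibody, complement and sugars were lost in that fit. So was the Lgals3bp call for Sirpa+ DCs against PBS pDCs. Without PBS pDC replicate 1 the calls for YG+ pDCs against Sirpa+ DCs rose instead in these lists, as they did over all genes tested. The PS list median was then -1.52, against 0.02 over all genes tested.

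**Figure D4:**
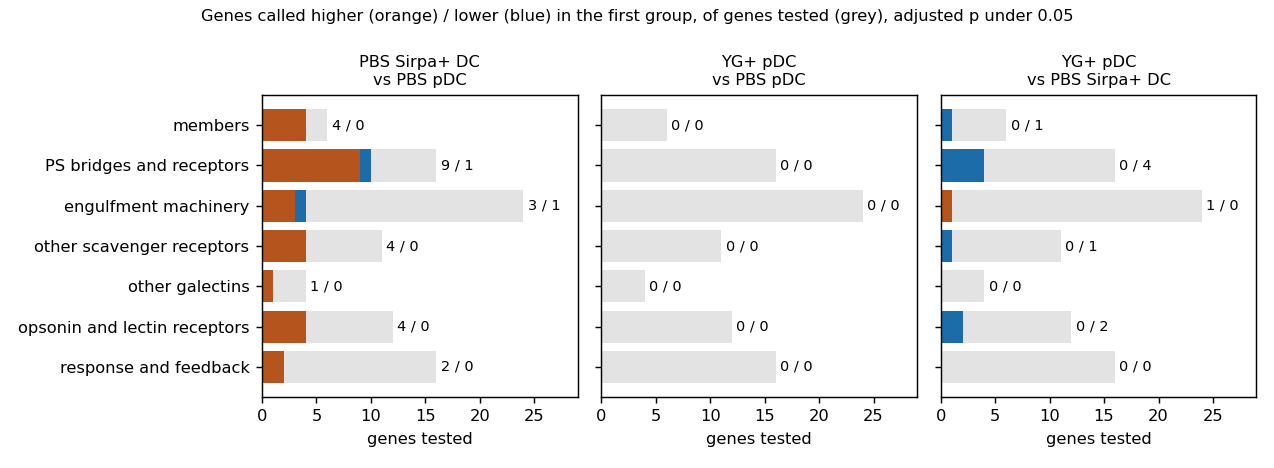
Number of genes tested (grey bars, horizontal axis) in the 9-gene set and 6 wider lists, with those called higher (orange) and lower (blue) in the first group at an edgeR adjusted p under 0.05. Calls are most numerous for PS bridges and receptors in Sirpa+ DCs against PBS pDCs (9 higher, 1 lower), and there are none for YG+ pDCs against PBS pDCs.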

How the data were processed

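Gene-level read counts were deposited by the authors as 1 file per library, not normalised. Per the submitters' processing notes, bcl2fastq 2.17 and mm10 were used; no source used here gives the aligner, counter, annotation or strandedness. Per the labels' protocols, TRIzol was used for RNA and Ovation SoLo for cDNA libraries. The 5 summary lines of each file, 97.7% to 99.5% of all records, stayed out of library sizes and tests. Genes passing filterByExpr (8141) were scaled by edgeR's TMM factors and tested in 1 fit of 6 libraries with edgeR 4.0.16 (glmQLFit, glmQLFTest; R 4.3.3), with adjustment over all genes and calls at 0.05. Of the 9 members, 6 were tested. CPM are edgeR's cpm values over the tested genes after TMM, and SEs were computed from the fold change and the F statistic. Likeness used log2 CPM with a prior count of 2. The fit was also run on simulated counts that had the same dispersion for all genes, unlike these data, and no result here rests on that run. Alternatives were other scalings, no filter, DESeq2 1.42.0, a fit of only the 4 libraries at issue, the replicate number as block, leaving out each library, and removal of Rn45s, Malat1, Xist and Tsix. Intervals of count ratios are exact (Clopper-Pearson). Members and lists were chosen with earlier results of these data known. The genes named from each wider list were among the 4 with the smallest p at 20 CPM or more; Pros1, Marco and Havcr1 were added after their values were seen. Promoters came from RefSeq, which held 8 of the 9 members. A gene that these rules name is not reported here.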

Additional observations from a re-analysis of the deposited data

How the results depend on the processing

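Over the tested genes, comparisons and alternative settings, 198 values kept their direction and side of the threshold, 10 lost a call, 16 gained one and 5 changed sign. With 1 library left in a group, that sample is assumed to vary like the other groups. The sign changed for Msr1 in YG+ against PBS pDCs, at a log2 fold change of -2.71 without YG+ pDC replicate 1 and -0.24 without PBS pDC replicate 2 (highest 4.45, without PBS pDC replicate 1), for Lgals3 in the same comparison (-0.44 without PBS pDC replicate 2 to 0.76 without replicate 1), and in YG+ pDCs against Sirpa+ DCs for Mertk (0.44 without YG+ pDC replicate 2, -2.51 without replicate 1) and Cd36 (0.95 without Sirpa+ DC replicate 1, -1.17 without replicate 2); the cause was not tested. Leaving out 1 library gave 213 to 1236 genes and 2 to 5 members called for Sirpa+ DCs against PBS pDCs (931 and 4 with all libraries). It gave 0 to 859 genes and 0 to 1 members for YG+ against PBS pDCs (0 and 0), with 859 without PBS pDC replicate 2, and 1 to 1425 genes and 0 to 3 members for YG+ pDCs against Sirpa+ DCs (583 and 1). With no filter on low counts, 141 genes and 2 members (Mertk and Stab1) were called for YG+ against PBS pDCs and 894 genes and 2 members for YG+ pDCs against Sirpa+ DCs. DESeq2 called 111 genes for YG+ against PBS pDCs, and a fit of the 4 libraries compared called 1449 genes and 4 members for YG+ pDCs against Sirpa+ DCs; the causes were not tested. Scaling by library size alone shifted the median of all genes to -0.16 and 0.13 in the comparisons with Sirpa+ DCs. The libraries share only a number: same-numbered libraries deviated with correlations of 0.298, -0.121 and -0.099, and with the replicate block 942, 0 and 635 genes and 4, 0 and 1 members were called. Depth limits Tyro3, with 0 counts in all 6 libraries together, and Gas6, Timd4, Msr1 and Cd36, with 25 to 59.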
